A study of Mus musculus with 12 samples.

Results

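The genes described here are 31 mouse Hox genes, namely the complete HoxB, HoxC and HoxD clusters and the anterior HoxA genes Hoxa2, Hoxa3 and Hoxa4. A gene was taken as a window from 1500 bp upstream of its transcription start site to its end in mm10, and its methylation level was the mean beta value (the percent methylated divided by 100, from 0 to 1) of the CpG cytosines listed in all 12 libraries. A window needed at least 3 such cytosines, a condition met by 30 of the 31 members and by 20427 genes in all. Hoxd8 had no listed cytosine and has no value here. The other 30 members held between 6 (Hoxa2) and 134 (Hoxa3) cytosines, with a median of 32, and 1078 distinct cytosines together. The members were taken as a list of gene names, which was chosen with earlier results of these data known. The shares of members set beside those of all gene windows are therefore descriptive.

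The study followed DNA methylation by RRBS (reduced representation bisulfite sequencing, which reads CpG-rich restriction fragments after conversion of unmethylated cytosines) in a pair of immortalised mouse embryonic fibroblast (iMEF) lines. The experimental line carried R26M2rtTA/+;TetOcre;Sdhcfl/fl and the control line R26M2rtTA/+;TetOcre;Sdhcfl/wt, so that both lines carried the Rosa26-driven reverse tetracycline transactivator, the inducible Cre and at least 1 floxed copy of Sdhc, a subunit gene of succinate dehydrogenase. Both lines received doxycycline at 1 microgram/mL, which turns on Cre, so the control line also recombined its floxed copy but kept a wild-type copy. Each line was sampled as 1 library at day 0, before doxycycline, and at days 5, 9, 12, 16 and 20. The comparison set all 6 control libraries against the 5 experimental ones taken from day 5 on, as the study grouped them, and kept the experimental library of day 0 out of the fit. Each genotype was 1 line, its libraries were time points of that line, and every SD and p-value below is over those time points. A difference between the genotypes and a difference between 2 separately derived lines cannot be told apart by this comparison, and the experimental library of day 0 is therefore given beside each called gene window. The read depth behind each value is unknown, since the deposited percentages carry no counts.

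Hox genes encode homeodomain transcription factors that give cells of the embryo a position along the body axis and the limb. They lie in 4 clusters in which the order of the genes follows the order of their expression domains, with low paralog numbers anterior and high numbers posterior, and genes with the same number in different clusters are paralogs. Cultured fibroblasts keep a Hox expression pattern of the body site they came from. In cells where a Hox gene is silent, its CpG-rich start is commonly held by Polycomb proteins with little DNA methylation, and DNA methylation in the clusters is often found in gene bodies and between genes.

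Facts of the whole series that touch these results are few. Libraries listed between 932307 and 1716381 cytosines, and control day 12 listed the fewest. The 2 strands of a CpG also differed most in control day 12, by 0.156 in beta value on average over 30394 pairs, against 0.0829 to 0.133 in the other libraries. The mean beta value over all common cytosines ranged from 0.4345 to 0.4471 in the experimental libraries, day 0 included, and from 0.4267 to 0.4340 in the control libraries. Every experimental library thus lay slightly above every control library. Promoters of fibroblast marker genes, of which 8 of 12 could be measured, had mean beta values of 0.213 to 0.298 in the experimental and 0.254 to 0.336 in the control libraries. Those of epithelial marker genes, 4 of 8 measured, lay at 0.201 to 0.294 and 0.209 to 0.285. Of the endothelial list, 1 of 4 promoters (Kdr) was measured, at 0.464 to 0.693 and 0.410 to 1, and none of the 3 blood markers was. None of the measured marker promoters passed the test between the lines, and these levels do not separate cell types. The Sdhc deletion itself cannot be read from methylation values.

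Promoter sequences are shown for a pair of start regions in HoxD, Hoxd4 with more and Hoxd11 with less methylation in the experimental line. They are RefSeq sequences of GRCm38.p6, from 250 bases before to 50 after a start site on the plus strand, and capitals mark the CpGs whose beta value was measured in all 12 libraries. RefSeq entries were found for 15 members (16 entries), and 7 of the entries contained a listed cytosine. Among those 7, Hoxd4 and Hoxd11 were the entries in which the libraries of the lines did not overlap.
Hoxd4, chr2:74721728-74722027: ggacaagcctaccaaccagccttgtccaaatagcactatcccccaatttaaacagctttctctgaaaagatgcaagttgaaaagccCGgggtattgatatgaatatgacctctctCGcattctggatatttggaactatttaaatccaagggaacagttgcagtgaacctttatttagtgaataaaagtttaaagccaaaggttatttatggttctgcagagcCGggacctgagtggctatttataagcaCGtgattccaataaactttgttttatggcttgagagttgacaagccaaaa
Hoxd11, chr2:74682073-74682372: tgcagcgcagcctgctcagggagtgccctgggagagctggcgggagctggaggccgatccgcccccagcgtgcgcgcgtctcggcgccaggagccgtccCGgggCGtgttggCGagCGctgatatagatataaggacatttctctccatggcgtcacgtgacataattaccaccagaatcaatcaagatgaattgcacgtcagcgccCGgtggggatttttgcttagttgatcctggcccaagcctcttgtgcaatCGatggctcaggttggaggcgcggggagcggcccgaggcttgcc

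The Hoxd4 start is poor in CpG, with 4 CpGs in its 300 bases, and all 4 were measured through 5 listed cytosines. Of 32851 promoter entries of that length, 38.0% have 4 CpGs or fewer, and the median is 7. The Hoxd11 entry, the downstream of the 2 starts listed for this gene, holds 25 CpGs, a number reached by 18.4% of all entries, and 6 of them were measured. Hoxd4 and Hoxd11 therefore stand for a CpG-poor and a CpG-rich Hox start. Their values are given with the HoxD cluster.

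Across the 30 members, 5 were more methylated and 8 less methylated in the experimental line than in the control line by limma (Benjamini-Hochberg adjusted p under 0.05 over all 20427 gene windows). The 5 higher members were Hoxa2, Hoxa3, Hoxa4, Hoxd3 and Hoxd4, or 16.7% of the members, and 3.62% of all gene windows were called higher. The 8 lower members were Hoxb3, Hoxb5, Hoxb9, Hoxc4, Hoxc8, Hoxc9, Hoxd10 and Hoxd12, or 26.7%, against 1.29% of all gene windows. The median absolute difference of beta was 0.113 over the members and 0.0197 over all gene windows. The median signed difference was -0.0121 over the members and 0.00468 over all gene windows, so the larger member differences ran in both directions. The libraries of the lines did not overlap for 5 members on the higher and 7 on the lower side, where 4.64% and 1.63% of all gene windows did not overlap in these directions.

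**Figure D1:**
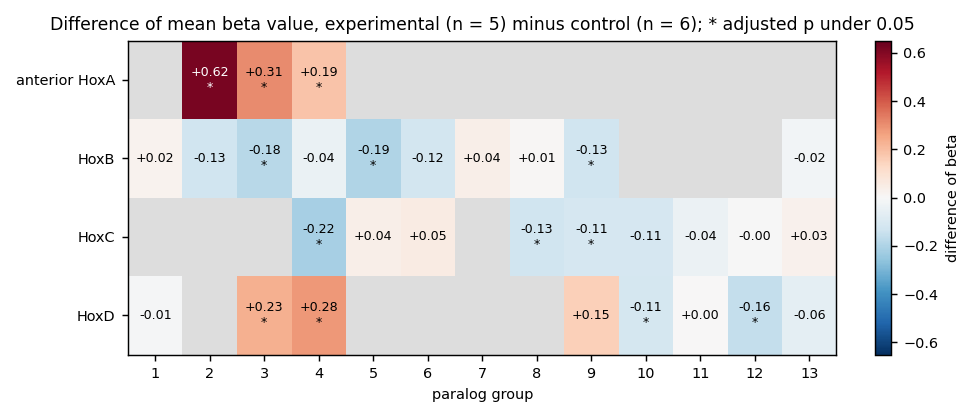
Difference of the mean beta value (experimental, 5 libraries, minus control, 6 libraries) for each measured member, with clusters as rows and paralog groups 1 to 13 as columns. Red is higher and blue lower in the experimental line, asterisks mark an adjusted p under 0.05, and grey cells are positions with no gene, genes outside the list or Hoxd8, which had no listed cytosine. Called members of HoxA are all higher, those of HoxB and HoxC all lower, and HoxD has both.

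By cluster, all 3 anterior HoxA members were called higher. In HoxB, 3 of 10 members were called lower and none higher, in HoxC 3 of 9 lower and none higher, and in HoxD 2 of 8 higher and 2 lower. The median difference of beta was 0.308 for anterior HoxA, -0.0826 for HoxB, -0.0360 for HoxC and -0.00177 for HoxD. Called paralogs of groups 3 and 4 went opposite ways, with Hoxa3, Hoxd3, Hoxa4 and Hoxd4 higher and Hoxb3 and Hoxc4 lower in the experimental line. All Hoxa4 cytosines lie in the Hoxa3 window and all Hoxd4 cytosines in the Hoxd3 window, so these pairs are not separate observations. Hoxb4 was not called by limma (adjusted p = 0.153).

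**Figure D2:**
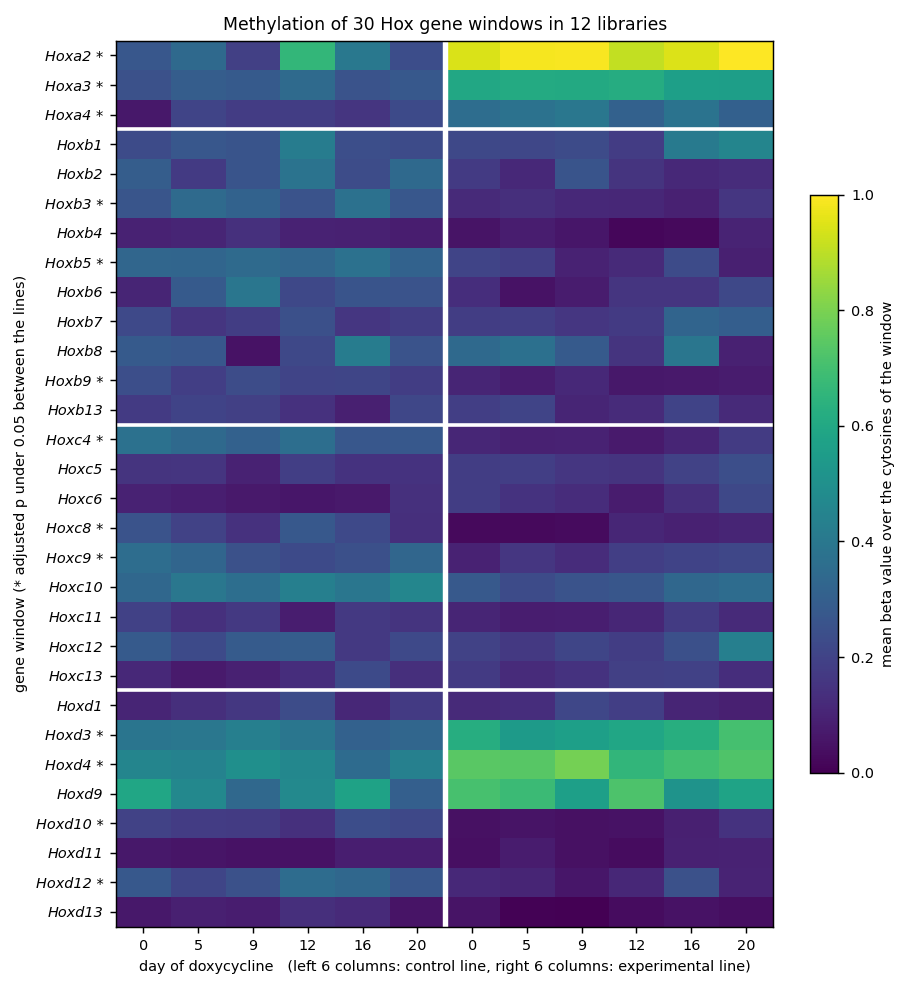
Mean beta value (colour, from 0 to 1) of the 30 measured gene windows (rows, by cluster and paralog group) in the 6 control libraries (left columns) and 6 experimental libraries (right columns) by day of doxycycline. Hoxa2, Hoxa3, Hoxd3 and Hoxd4 are brighter in every experimental library, day 0 included, and most HoxB and HoxC rows are dark in both lines.

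Averaged over its members, anterior HoxA stood at a beta value of 0.638 ± 0.0231 (SD, n = 5, experimental) against 0.268 ± 0.0712 (SD, n = 6, control). HoxB stood at 0.162 ± 0.0284 and 0.236 ± 0.00983, and its highest experimental library (0.201) lay under its lowest control library (0.223). HoxC stood at 0.165 ± 0.0372 and 0.219 ± 0.0146, with overlapping libraries. HoxD stood at 0.297 ± 0.00886 and 0.256 ± 0.0171, and its lowest experimental library (0.286) lay above its highest control library (0.279). The HoxD mean combines called members of both directions, so it does not describe the cluster as a whole. All Hoxa4 and Hoxd4 cytosines also enter these cluster means through Hoxa3 and Hoxd3. Before doxycycline the experimental and control libraries stood at 0.634 and 0.195 for anterior HoxA, 0.170 and 0.223 for HoxB, 0.149 and 0.240 for HoxC and 0.305 and 0.268 for HoxD, which is the same order in each cluster.

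In the experimental line 57.0% of the 1078 member cytosines had a mean beta value under 0.2, and in the control line 49.5%, where all common cytosines gave 42.9% and 44.2%. Only 7.79% and 2.60% were over 0.8, against 31.4% and 30.5% of all common cytosines. In anterior HoxA 34.3% of the 140 cytosines were over 0.8 in the experimental and 0.714% in the control line. Of these 140, 51 also lie in the window of a posterior HoxA gene, and 43.1% of them were over 0.8 in the experimental line and 0 in the control line, against 29.2% and 1.12% of the 89 that do not. A difference of more than 0.2 upward was seen at 62.1% of the anterior HoxA, 4.41% of the HoxB, 6.02% of the HoxC and 24.7% of the HoxD cytosines, and at 8.16% of all common cytosines. A difference of more than 0.2 downward was seen at 0.714%, 30%, 18.0% and 12.95% in the same order, and at 5.76% of all common cytosines.

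Hoxa2 (gene ID 15399, chr6:52162417-52164831, minus strand), which specifies hindbrain and pharyngeal arch identity, showed the largest difference of any member. Its 6 cytosines had mean beta values of 0.987, 0.990, 0.908, 0.947 and 1 at days 5, 9, 12, 16 and 20 in the experimental line. In the control line they had 0.273, 0.340, 0.191, 0.664, 0.400 and 0.235 at days 0 to 20. Every experimental library was above every control library, and control day 12 was the highest of the controls. The means were 0.967 ± 0.0384 (n = 5) and 0.350 ± 0.171 (n = 6), and the difference on the M-value scale (the log2 ratio of methylated to unmethylated share, offset 0.01) was 5.91 with an SE of 0.70 (adjusted p = 0.00257). The experimental line was already at 0.944 at day 0. All 6 cytosines were in the gene and none in the promoter (1500 bp upstream to 500 bp downstream of the start site).

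Hoxa3 (gene ID 15400, chr6:52169059-52213067, minus strand), needed for the thymus and parathyroid, has the longest window of the list, which also contains all cytosines of Hoxa4 and the windows of Hoxa5 and Hoxa6. The experimental libraries of days 5 to 20 had 0.611, 0.608, 0.619, 0.566 and 0.560. The control libraries had 0.248, 0.296, 0.284, 0.346, 0.256 and 0.276. The lines were far apart at each day, and the spread within each line was small. Hoxa3 differed by 1.84 in M-value with an SE of 0.13 (adjusted p = 0.000171), and the experimental library of day 0 stood at 0.601. Of its 134 cytosines, 81 were more than 0.2 higher and 1 was more than 0.2 lower in the experimental line, and 73 lay in the window of another Hox gene as well.

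Hoxa4 (gene ID 15401, chr6:52189682-52191703, minus strand), a cervical vertebra patterning gene, had 0.375, 0.398, 0.309, 0.380 and 0.306 in the experimental line at days 5 to 20. In the control line it had 0.0635, 0.206, 0.176, 0.182, 0.155 and 0.224. The lines did not overlap, and the control library of day 0 was the lowest of all. The M-value difference was 1.47 with an SE of 0.32 (adjusted p = 0.0288), and day 0 of the experimental line was at 0.357. The difference lay in the part of the window outside the promoter, whose 10 cytosines had 0.625 ± 0.0804 and 0.291 ± 0.110, while the 12 promoter cytosines had 0.128 ± 0.101 and 0.0651 ± 0.0550 (promoter adjusted p = 0.55). The gene window call was lost without experimental day 5, 9, 12 or 16 or control day 9 or 16, with adjusted p between 0.0514 and 0.0659.

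Site by site, 19 of the 140 tested anterior HoxA cytosines were called higher and none lower, where 0.335% of all 508351 tested cytosines were called higher and 0.279% lower. The largest rise was at chr6:52202798, inside Hoxa3 and in the window of Hoxa5. This cytosine had a beta value of 1 in each experimental library of days 5 to 20, and 0, 0.0667, 0.308, 0, 0 and 0.333 in the control libraries. The groups were separate, and the experimental library of day 0 was at 0.850 (M-value difference 10.94, SE 1.19, adjusted p = 0.00300). Among the others, 3 lay in Hoxa2 and 9 in the part of the Hoxa3 window that is shared with Hoxa6, a posterior HoxA gene whose own window had 0.861 ± 0.0193 and 0.294 ± 0.0921.

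Along the chromosome, 7 of the 16 tested 1000 bp tiles of the anterior HoxA span were called higher and none lower, against 1.62% of 69925 tiles called higher and 0.768% lower. The called tile with the largest difference, chr6:52170001-52171000 at the 3′ end of Hoxa3, had 7 cytosines with 0.935 ± 0.0422 and 0.264 ± 0.130 (adjusted p = 0.00292). A difference of more than 0.1 upward was found in 14 of the 16 tiles. The remaining tiles differed little. They were chr6:52175001-52176000 within Hoxa3, with 0.284 ± 0.0451 and 0.239 ± 0.114 over 21 cytosines, and chr6:52192001-52193000 just upstream of the Hoxa4 start. The latter had 0.0145 ± 0.0174 and 0.0195 ± 0.0328 over 3 cytosines.

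**Figure D3:**
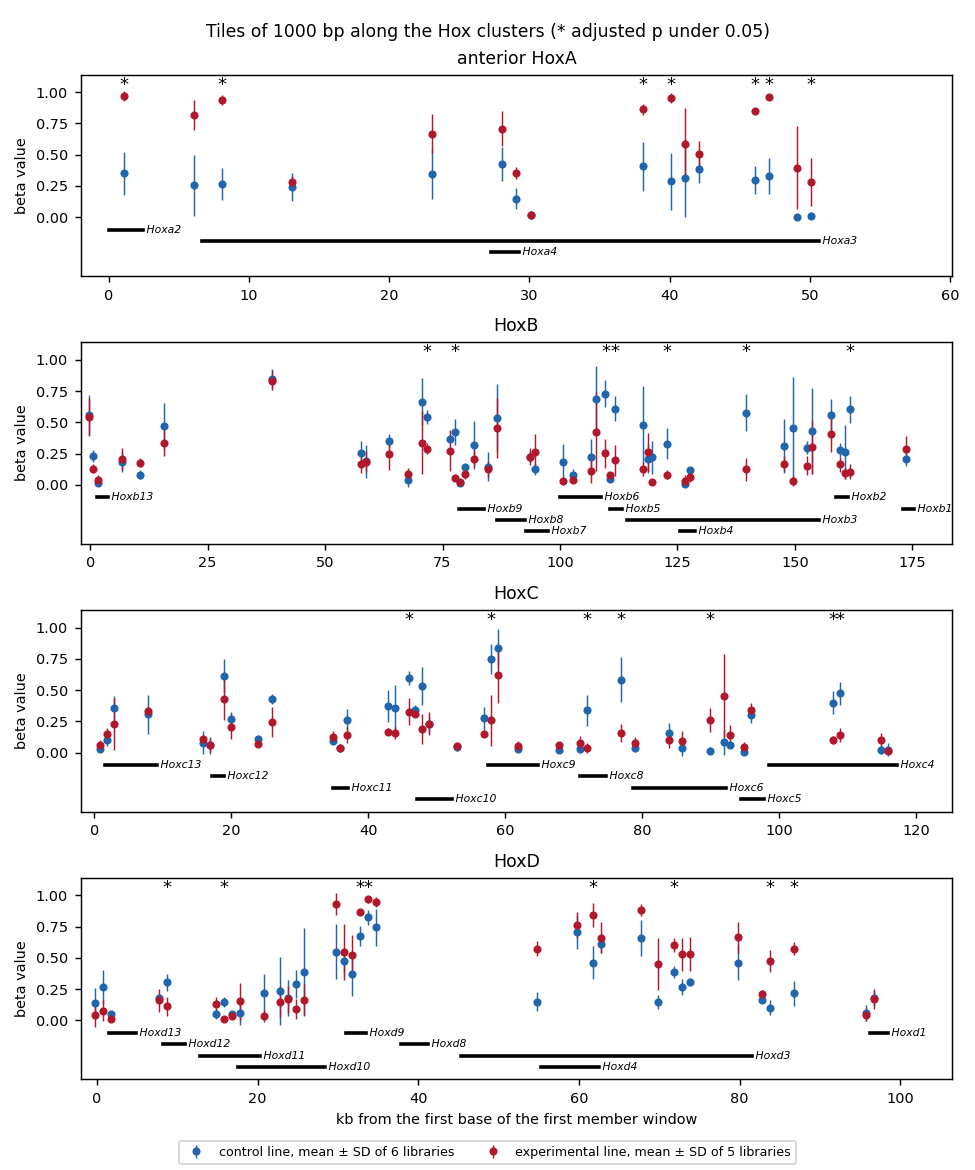
Mean beta value ± SD of 1000 bp tiles (points) along each cluster, in kb from the first base of the first member window, for 6 control libraries (blue) and 5 experimental libraries of days 5 to 20 (red). Black bars are the member genes, and asterisks mark tiles with an adjusted p under 0.05. Most experimental tiles lie above the control tiles in anterior HoxA and over Hoxd9 to Hoxd3, and below them at the called tiles of HoxB.

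In HoxB the called members were less methylated in the experimental line. Hoxb9 (gene ID 15417, chr11:96271330-96276595, plus strand), which patterns the thorax, had 0.0794, 0.115, 0.0643, 0.0667 and 0.0770 at days 5 to 20 in the experimental line. The control libraries had 0.242, 0.185, 0.232, 0.203, 0.211 and 0.181. No control library reached down to the highest experimental library. The M-value difference was -1.51 with an SE of 0.16 (adjusted p = 0.00202), and the experimental library of day 0 was at 0.104. With the cytosines that lie in no other gene window the difference was -0.66 and was not called (adjusted p = 0.0572).

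Hoxb9 was also the only member called by its promoter. Of the 21 members with at least 3 promoter cytosines, none was called higher by limma (2 at an unadjusted p under 0.05) and 1 lower, where 1.80% and 0.774% of 13305 promoters were called. Its 23 promoter cytosines had 0.0634, 0.0583, 0.0257, 0.0381 and 0.0646 in the experimental line at days 5 to 20, and 0.399, 0.259, 0.327, 0.270, 0.369 and 0.256 in the control line. The control values were several times the experimental values in every library. The promoter M-value difference was -2.93 (adjusted p = 0.000785), and at day 0 the promoter was at 0.140 in the experimental line. Most of it fell in the tile chr11:96270001-96271000, just upstream of the start site, where 15 cytosines had 0.0581 ± 0.0290 and 0.420 ± 0.105 (adjusted p = 0.00465). The 41 cytosines outside the promoter had 0.0977 ± 0.0279 and 0.150 ± 0.0204.

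Hoxb3 (gene ID 15410, chr11:96307101-96347930, plus strand), which acts in hindbrain and pharyngeal development, had 0.135, 0.115, 0.112, 0.0931 and 0.157 in the experimental line. In the control line it had 0.264, 0.347, 0.316, 0.255, 0.375 and 0.273. The groups were separate, with an M-value difference of -1.59 and an SE of 0.18 (adjusted p = 0.00243), and the experimental line was at 0.121 at day 0. Of its 105 cytosines, 45 were more than 0.2 lower and 2 more than 0.2 higher. It encloses Hoxb4, whose 25 cytosines were little methylated in both lines, at 0.0567 ± 0.0341 and 0.101 ± 0.0197 (adjusted p = 0.153).

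Hoxb5 (gene ID 15413, chr11:96303512-96306121, plus strand), a cervicothoracic gene that also marks blood stem cells, had 0.185, 0.0941, 0.121, 0.227 and 0.0860 in the experimental line. Its control values were 0.330, 0.327, 0.346, 0.331, 0.373 and 0.314. The control libraries were close to each other and all above the experimental libraries. Hoxb5 had an M-value difference of -1.63 with an SE of 0.26 (adjusted p = 0.00933), and the day 0 library of the experimental line was at 0.203. Outside the promoter 9 cytosines had 0.196 ± 0.123 and 0.609 ± 0.0994, and within it 18 had 0.116 ± 0.0419 and 0.2005 ± 0.0426.

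The cytosine with the largest fall in HoxB, chr11:96320538, lies in Hoxb4 and inside Hoxb3. It was at 0 in the experimental libraries of days 5, 9, 12 and 16 and at 0.167 at day 20. In the control line it had 0.375, 0.667, 0.667, 0.951, 1 and 0.667. The groups were separate, and the experimental library of day 0 was at 0 (M-value difference -7.93, SE 1.38, adjusted p = 0.0342). In all, 4 of 334 tested HoxB cytosines and 7 of 45 tiles were called lower and none higher. Among all tested cytosines 0.279% were called lower and 0.335% higher, and among all tiles 0.768% and 1.62%. The called tile with the largest difference, chr11:96354001-96355000, had 0.107 ± 0.0597 and 0.606 ± 0.107 over 12 cytosines (adjusted p = 0.00636). It begins at the 3′ end of Hoxb2 and lies almost wholly downstream of that gene.

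Not called in HoxB were Hoxb1, Hoxb2, Hoxb4, Hoxb6, Hoxb7, Hoxb8 and Hoxb13. Hoxb2, a hindbrain gene, had 0.153 ± 0.0605 and 0.280 ± 0.0752 (adjusted p = 0.0804), and without experimental day 9, its highest experimental library, the adjusted p was 0.0347. Hoxb6 had 0.130 ± 0.0675 and 0.251 ± 0.0947 (adjusted p = 0.194), and at day 0 the experimental library was above the control library, 0.132 against 0.102. Hoxb1, which acts in the hindbrain, differed little on average but had 0.413 and 0.457 at days 16 and 20 in the experimental line, against 0.176 to 0.228 at its other days. Control day 12 was also high for this gene, at 0.420. Hoxb7 had 0.321 and 0.298 at the same days 16 and 20, against 0.160 to 0.184 before. Hoxb8 had the widest spread, with SDs of 0.132 and 0.120 over 9 cytosines, and Hoxb13, a prostate and tail gene, had 0.151 ± 0.0480 and 0.167 ± 0.0465.

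In HoxC, Hoxc4 (gene ID 15423, chr15:103018097-103036856, plus strand), the most anterior gene of that cluster, had 0.0917, 0.0944, 0.0723, 0.103 and 0.173 in the experimental line at days 5 to 20. The control libraries had 0.373, 0.343, 0.311, 0.362, 0.273 and 0.274. All experimental libraries were below all control libraries, and experimental day 20 was the nearest to them. On the M-value scale the difference was -1.95 with an SE of 0.23 (adjusted p = 0.00243), and day 0 of the experimental line was at 0.107. The 2 called tiles of this gene, chr15:103027001-103028000 and chr15:103028001-103029000, were adjacent, with 0.102 ± 0.0314 and 0.401 ± 0.0917 in the former and 0.140 ± 0.0571 and 0.474 ± 0.0911 in the latter.

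Hoxc8 (gene ID 15426, chr15:102990539-102994275, plus strand), a thoracic identity gene, had 0.0253, 0.0309, 0.107, 0.0925 and 0.105 in the experimental line. In the control line it had 0.255, 0.197, 0.143, 0.275, 0.220 and 0.135. The lowest control library, day 20, was close above the highest experimental library. Hoxc8 differed by -1.74 in M-value with an SE of 0.41 (adjusted p = 0.0401), and at day 0 the experimental line was at 0.0240. Of its 12 cytosines, 3 were more than 0.2 lower. The 5 cytosines outside the promoter had 0.0617 ± 0.0833 and 0.443 ± 0.130, while the 7 promoter cytosines had 0.0797 ± 0.0519 and 0.0335 ± 0.0321.

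Hoxc9 (gene ID 15427, chr15:102977032-102984444, plus strand), which sets thoracic motor neuron identity, had 0.158, 0.127, 0.187, 0.202 and 0.214 in the experimental line. Its control values were 0.359, 0.326, 0.250, 0.223, 0.244 and 0.330. The highest experimental and the lowest control library were close but did not cross. Hoxc9 differed by -0.88 in M-value with an SE of 0.21 (adjusted p = 0.0444), and the experimental library of day 0 stood at 0.0943. The Hoxc8 and Hoxc9 calls were near the threshold, and each was lost in 10 of the 11 fits without 1 library. The exceptions were the fit without experimental day 20 for Hoxc8 and the fit without control day 12 for Hoxc9. Otherwise the adjusted p was 0.0513 to 0.0798 for Hoxc8 and 0.0514 to 0.0995 for Hoxc9.

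The other HoxC members were not called. Hoxc10, a lumbar gene and the most methylated of the cluster, had 0.288 ± 0.0540 and 0.396 ± 0.0455 (adjusted p = 0.0627, and 0.0427 without experimental day 20). Hoxc6 had 0.140 ± 0.0505 and 0.0862 ± 0.0280 (adjusted p = 0.189) and contained tiles that differed in opposite directions. The tile chr15:103009001-103010000 within it was higher in the experimental line, with 0.260 ± 0.0979 and 0.0170 ± 0.0293 over 4 cytosines (adjusted p = 0.0121). The tile chr15:102996001-102997000 at its upstream edge was lower, with 0.155 ± 0.0727 and 0.584 ± 0.181 (adjusted p = 0.0237). This lower tile contains chr15:102996804, the HoxC cytosine with the largest fall, at 0.156, 0.120, 0, 0.170 and 0.114 in the experimental and 0.767, 0.677, 0.630, 0.850, 0.712 and 0.765 in the control line. The lines were wide apart there, and day 0 of the experimental line was at 0.0189 (M-value difference -4.85, SE 0.79, adjusted p = 0.0257).

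Hoxc5, Hoxc11, Hoxc12 and Hoxc13, the last a hair follicle gene, differed by between -0.0360 and 0.0396 in mean beta value, with adjusted p of 0.274 or more. Over the whole cluster 2 of 259 tested cytosines were called lower and none higher, against 0.279% and 0.335% of all tested cytosines. Of 40 tiles 1 was called higher and 6 lower, against 1.62% and 0.768% of all tiles. The called tile with the largest difference, chr15:102977001-102978000 at the start of Hoxc9, had 0.258 ± 0.204 and 0.750 ± 0.122 over 3 cytosines (adjusted p = 0.0314).

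HoxD differed by position. Hoxd3 (gene ID 15434, chr2:74711993-74748271, plus strand), which shapes the first cervical vertebra, had 0.546, 0.565, 0.592, 0.626 and 0.707 in the experimental line at days 5 to 20. The control libraries had 0.388, 0.397, 0.433, 0.392, 0.310 and 0.328. The groups were separate, and experimental day 20 was the highest library. The M-value difference was 1.35 with an SE of 0.19 (adjusted p = 0.00557), and the experimental line was at 0.623 at day 0. Of its 90 cytosines, 52 were more than 0.2 higher and none was more than 0.2 lower.

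Hoxd4 (gene ID 15436, chr2:74721978-74729160, plus strand), a hindbrain and neck gene, lies inside the Hoxd3 window and shares its 17 cytosines with it. It had 0.742, 0.790, 0.656, 0.697 and 0.723 in the experimental and 0.455, 0.443, 0.499, 0.464, 0.351 and 0.436 in the control line. The lines were separate by a wide gap at every day. Hoxd4 differed by 1.70 in M-value with an SE of 0.19 (adjusted p = 0.00231), and day 0 of the experimental line was at 0.742.

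At the Hoxd4 start printed above, the 5 cytosines had 0.528, 0.555, 0.546, 0.676 and 0.567 in the experimental line and 0.500 at day 0. The control libraries had 0.182, 0.178, 0.196, 0, 0.203 and 0.137. All experimental libraries were above all control libraries, and control day 12 was the lowest. The means were 0.574 ± 0.0585 and 0.149 ± 0.0768, but the promoter test gave an adjusted p of 0.0551, and 0.000479 without control day 12. Each of the 4 CpGs was higher in the experimental line, from 0.411 ± 0.153 against 0.0853 ± 0.1002 at the most upstream to 0.763 ± 0.188 against 0.214 ± 0.205 at the plus-strand cytosine of the next to last.

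At the other end of the cluster Hoxd10 and Hoxd12 were called lower, and Hoxd11 and Hoxd13 were not called. Hoxd10 (gene ID 15430, chr2:74684273-74695106, plus strand), a hindlimb and lumbar gene, had 0.0529, 0.0434, 0.0477, 0.0877 and 0.145 in the experimental line. In the control line it had 0.197, 0.178, 0.175, 0.137, 0.236 and 0.216. The groups overlapped through experimental day 20 and control day 12. The M-value difference was -1.52 with an SE of 0.31 (adjusted p = 0.0227), and without experimental day 5, experimental day 12 or control day 20 the adjusted p was 0.0558, 0.0571 and 0.0508. At day 0 the experimental library was at 0.0447. The promoter was at about the same low level in both lines (0.0538 ± 0.0231 and 0.0494 ± 0.0157), and the 50 other cytosines had 0.0858 ± 0.0551 and 0.257 ± 0.0485.

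Hoxd12 (gene ID 15432, chr2:74675013-74677705, plus strand), a digit gene, had 0.105, 0.0619, 0.110, 0.247 and 0.0992 in the experimental and 0.277, 0.210, 0.246, 0.352, 0.332 and 0.271 in the control line. Experimental day 16 lay within the control range, and the other experimental libraries lay below it. The M-value difference was -1.51 with an SE of 0.34 (adjusted p = 0.0345), and day 0 of the experimental line was at 0.114. The call was lost in 9 of the 11 fits without 1 library, the exceptions being experimental day 16 and control day 5, with adjusted p of 0.0556 to 0.0747 elsewhere. The 30 promoter cytosines had 0.116 ± 0.0692 and 0.292 ± 0.0796 (promoter adjusted p = 0.0506, and 0.0206 without experimental day 16). Hoxd13, the most posterior gene and a limb and genital gene, had 0.0251 ± 0.0202 and 0.0893 ± 0.0307 (adjusted p = 0.0506, and 0.0444 without experimental day 16). It was called lower with an offset of 0.05, on beta values, with at least 10 cytosines and with the trended and robust prior, with adjusted p of 0.0314 to 0.0469.

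Hoxd9, between the 2 ends, had 0.613 ± 0.0868 and 0.458 ± 0.119 (adjusted p = 0.176). The adjacent tiles chr2:74699001-74700000 in its body and chr2:74700001-74701000, which lies mostly past its end, were called higher. They had 0.868 ± 0.0154 against 0.677 ± 0.0787 and 0.968 ± 0.0259 against 0.824 ± 0.0573. Hoxd11 was low in both lines, with 0.0685 ± 0.0284 and 0.0637 ± 0.0160, and Hoxd1, at the other end, had 0.144 ± 0.0544 and 0.152 ± 0.0470.

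Within the Hoxd11 window, a called tile and nearby called cytosines differed in opposite directions. At the CpG-rich start printed above, the 6 cytosines had 0.0450, 0.00327, 0, 0.01 and 0.00407 in the experimental line at days 5 to 20 and 0.110, 0.149, 0.152, 0.161, 0.211 and 0.0930 in the control line. The lines were separate, with the experimental line near 0, and at day 0 the experimental library was at 0.00450. These 6 are the cytosines of the tile chr2:74682001-74683000, which was called lower (M-value difference -3.26, SE 0.45, adjusted p = 0.00795). Of 322 cytosines tested in HoxD, 2 were called higher and none lower, against 0.335% and 0.279% of all tested cytosines. These were chr2:74681787 and chr2:74681789, less than 1000 bp upstream of that tile. The latter was at 0 in all 6 control libraries and in the experimental library of day 0. It had 0.125, 0.250, 0.0417, 0.313 and 0.154 in the experimental line at days 5 to 20 (M-value difference 4.26, SE 0.54, adjusted p = 0.00696). The size of a difference from 0 depends on the offset. The tile that holds both cytosines, chr2:74681001-74682000, was not called by limma (adjusted p = 0.209). Its 11 cytosines had 0.131 ± 0.0565 in the experimental and 0.0499 ± 0.0401 in the control line.

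In the whole HoxD span 6 of 35 tiles were called higher and 2 lower, against 1.62% and 0.768% of all tiles. The lower tiles were in Hoxd12 and Hoxd11, and the higher tiles ran from Hoxd9 to beyond the end of Hoxd3. The called tile with the largest difference, chr2:74728001-74729000 in Hoxd4 and Hoxd3, had 0.846 ± 0.0968 and 0.462 ± 0.131 over 4 cytosines (adjusted p = 0.0401). The tile of the Hoxd4 start, chr2:74721001-74722000, differed by more, 0.425 in beta value, but did not pass (adjusted p = 0.0557). The 2 called tiles past the end of Hoxd3, chr2:74750001-74751000 and chr2:74753001-74754000, had 0.475 ± 0.0895 against 0.103 ± 0.0607 and 0.575 ± 0.0507 against 0.217 ± 0.101.

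The differences were compared with the state of the lines before induction. For all 13 called members the experimental library of day 0, which the fit between the lines had not used, was nearer to the mean of the later experimental libraries than to the control mean. The same held for 868 of all 1003 called gene windows (86.5%) and for 62.0% of all tested gene windows. In the 13 called members the difference at day 0, 1 library against 1, also had the sign of the difference over days 5 to 20. It was 0.672 for Hoxa2, 0.287 for Hoxd4, -0.266 for Hoxc4 and -0.138 for Hoxb9. The control library of day 0 was among the fitted libraries, so the shared sign is not independent of the calls. Its share over all called gene windows was not computed. All 29 called tiles had their experimental day 0 library on the experimental side, as did 25 of the 27 called cytosines, the exceptions being the pair in Hoxd11. The shares over all called tiles and all called cytosines were not computed, so these counts are not shown to be particular to the Hox clusters.

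**Figure D4:**
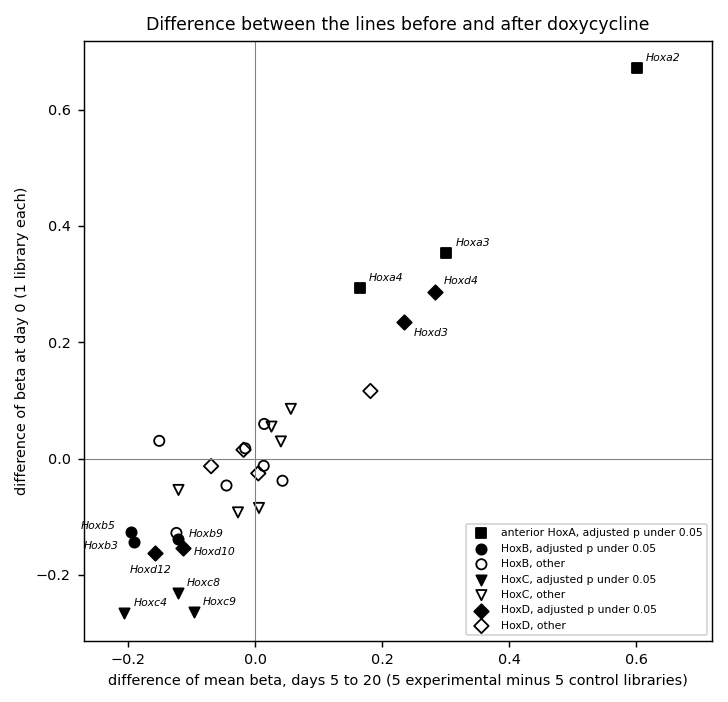
Difference of beta between the lines at day 0 (vertical axis, 1 library each) against the difference of the means over days 5 to 20 (horizontal axis, 5 libraries each) for the 30 measured members, by cluster. Filled symbols have an adjusted p under 0.05 between the lines. All 13 filled symbols lie in the upper right or lower left quadrant. The control library of day 0 was among the libraries fitted for the calls.

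No member passed the test for a change after induction that differed between the lines. The test of the difference between the change from day 0 to later days in the experimental line and that in the control line (limma, 1 library per line at day 0) called 0 of 30 members, against 0.0587% of all gene windows called with a more positive and 0.0539% with a more negative change in the experimental line. At an unadjusted p under 0.05 it had 2 members, against 5.03% of all gene windows. These were Hoxa4, with an estimate of -1.66 (SE 0.39, unadjusted p = 0.00206, adjusted p = 0.357), and Hoxc9, with 1.53 (SE 0.52, unadjusted p = 0.0154, adjusted p = 0.752). For Hoxa4 the control library rose from 0.0635 at day 0 to 0.155 or more later, and the experimental libraries ranged from 0.306 to 0.398 throughout. For Hoxc9 the experimental library of day 0 was the lowest at 0.0943. With the day as a number, 4 members had a more positive slope in the experimental line at an unadjusted p under 0.05 and none a more negative one, where 2.56% of all gene windows had a more positive and 1.91% a more negative slope at that threshold. None of the members passed the adjustment (adjusted p = 1 for each). They were Hoxc8, with a slope difference of 0.144 (SE 0.0417) in M-value per day, Hoxc12 with 0.0977 (SE 0.0365), Hoxc9 with 0.0829 (SE 0.0275) and Hoxd3 with 0.0554 (SE 0.0231). With 1 library per line before induction, the spread of that state is not measured.

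**Figure D5:**
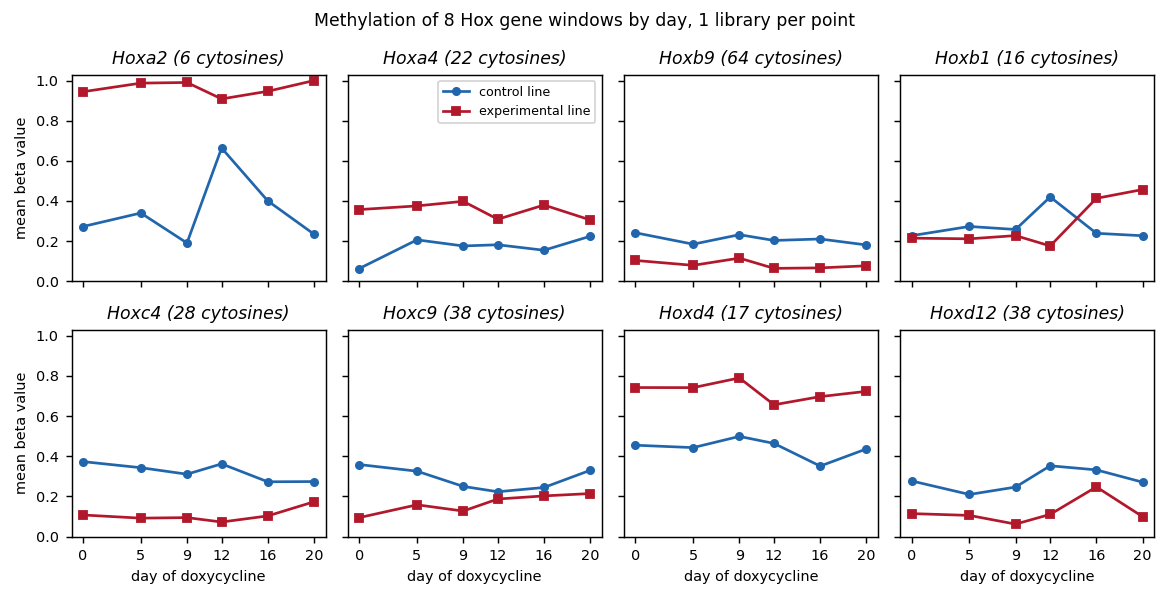
Mean beta value (vertical axis, 0 to 1) of 8 gene windows by day of doxycycline (horizontal axis), with 1 library per point, in the control line (blue circles) and the experimental line (red squares). The lines are apart from day 0 on in Hoxa2, Hoxa4, Hoxb9, Hoxc4, Hoxc9, Hoxd4 and Hoxd12, and cross in Hoxb1.

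The regions of the clusters that hold microRNAs and noncoding RNAs, and genes that work with Hox proteins, were counted from lists. The mature miR-196 sequences are shown because their loci lie among the genes above and because this family pairs with Hox messenger RNAs. Capitals mark the seed, bases 2 to 8, and the sequences are from RefSeq (GRCm38.p6).
mmu-miR-196a-5p: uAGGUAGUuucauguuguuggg
mmu-miR-196b-5p: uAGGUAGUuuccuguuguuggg
The seeds are the same. The window of Mir196a-1 (chr11:96265187-96265208 for the mature form, between Hoxb13 and Hoxb9) was less methylated in the experimental line, with 0.300 ± 0.0847 and 0.554 ± 0.0462 over 20 cytosines (adjusted p = 0.00906). That of Mir196b in HoxA was also lower, with 0.0409 ± 0.0226 and 0.217 ± 0.0880 over 7 (adjusted p = 0.00909). Mir196a-2 in HoxC, which encodes the same mature form as Mir196a-1, had 0.0477 ± 0.0155 and 0.0846 ± 0.0296 over 10 (adjusted p = 0.129). In all, 4 of the 6 listed Hox miRNA windows were tested, and 2 were called lower and none higher, against 1.29% and 3.62% of all gene windows.

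Of 12 listed Hox noncoding RNAs, 3 were tested, with Hottip called higher and Hoxb3os, which shares cytosines with the Hoxb2 and Hoxb3 region, called lower. Of the 7 posterior HoxA genes, Hoxa6 was called higher and Hoxa9, Hoxa10 and Hoxa13 lower, with a median absolute difference of 0.0950. Of 9 Hox cofactor genes 1 (Meis1) was called higher, and of 5 ParaHox genes 1 (Gsx1) higher and 1 (Cdx1) lower. Of 20 tested Polycomb genes 1 (Cbx6) was called higher, and of 8 tested Trithorax and H3K27 demethylase genes none was called. By comparison, 3.62% of all gene windows were called higher and 1.29% lower, so the Polycomb share of 5% was near that of all windows. The median absolute difference was 0.0366 in the cofactor, 0.0293 in the ParaHox, 0.01003 in the Polycomb and 0.0160 in the Trithorax list. The Hox members had 0.113 and all gene windows 0.0197.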

How the data were processed

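The 12 RRBS libraries, 6 per line, were analysed. Per the labels and the study's methods, the authors aligned the reads to mm10 with Bismark (named in the submitters' processing notes) and deposited the percent of methylated reads per CpG cytosine, without read counts. No coverage minimum, counting interval or exon annotation was therefore used. Autosomal cytosines listed in all 12 libraries (606488, of which 508351 varied) were kept with both strands as separate sites, and percent values were divided by 100. Listed positions fell on C or G of a CpG in RefSeq GRCm38.p6 promoter sequences, so RefSeq gene spans of that assembly were used. Strand was read from GRCm38.p6 tables or, where these lacked a gene, looked up by symbol in GENCODE M1, whose coordinates were not used.

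Means over gene windows, promoters and 1000 bp tiles (3 or more cytosines) and single cytosines were converted to M-values with an offset of 0.01 and fitted with limma 3.58.1 in R 4.3.3, 6 control against 5 experimental libraries, with Benjamini-Hochberg adjustment over all features. The step was also run on simulated gene windows with known changes and independent noise in each library. That setting does not reproduce time points of a single line, so it cannot show how the test behaves for them. Tables and plots were made with Python 3.11.15, numpy 2.4.6, pandas 2.3.3 and matplotlib 3.10.9. Every measured member was reported, with values by library for members past the threshold, and for each cluster the called cytosines with the largest rise and fall and the called tile with the largest difference of beta. Hoxb1, Hoxb7 and the Hoxd4 and Hoxd11 starts were singled out after their values were seen. The members, the lists and the tests were chosen with earlier results of these data known. The alternatives were other offsets and scales, other minimum numbers of cytosines, averaging of strands, cytosines of 1 window, the median, 11 libraries, other groupings of day 0, the day as a block, other tile sizes, and each library left out in turn. Deviations of same-day libraries of the lines from their line means correlated at -0.0261 to 0.0246 over genes, so the days did not pair the libraries.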

Additional observations from a re-analysis of the deposited data

Results flagged for a closer look

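In 3 of the 60 groups of libraries tested (30 members in 2 lines), a single library stood apart from the rest of its group by Dixon's criterion, and chance alone marks about 1 group in 20. Hoxb1 was at 0.420 in control day 12, where the other control libraries lay between 0.227 and 0.273. Hoxb2 was at 0.258 in experimental day 9, where the other experimental libraries of days 5 to 20 lay between 0.113 and 0.150. Hoxd12 was at 0.247 in experimental day 16, where the others lay between 0.0619 and 0.110. Control day 12 is also the library with the fewest listed cytosines, and its part in the Hoxb1 value was not tested.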

How the results depend on the processing

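The depth behind each value is unknown, 1 library per line and day was measured, and window means rest on as few as 6 cytosines. The calls of Hoxa2, Hoxa3, Hoxb3, Hoxb5, Hoxb9, Hoxc4, Hoxd3 and Hoxd4 held in each of the 11 fits that left out 1 library. In these fits the gene windows called higher numbered 4 to 5 and lower 4 to 7 (8 with all libraries), with 4 lower without experimental day 5, experimental day 12 or control day 20 and 5 without control day 0, 9 or 16. Promoters called higher numbered 0 to 1 (1 without control day 12) and lower 1 to 3 (3 without experimental day 16). Cytosines called lower numbered 3 (without experimental day 5) to 14 (without control day 12, and 12 without experimental day 20). Tiles called higher numbered 6 (without experimental day 12, 8 without experimental day 5, 9 without control day 16) to 18, and tiles called lower 9 (without experimental day 12) to 15.

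With the median over cytosines in place of the mean, 2 members were called higher (Hoxa2 and Hoxd3) and 0 lower by limma, with 3 lower at an unadjusted p under 0.05. The M-value differences then changed sign to -0.115 for Hoxb1, 0.152 for Hoxb13, 0.306 for Hoxc8, 0.468 for Hoxc9, 0.529 for Hoxc12 and 1.12 for Hoxd1, and the cluster medians of the difference of beta were 0.443 for anterior HoxA, -0.0265 for HoxB and 0.0108 for HoxC. With cytosines of 1 gene window only, 3 members were called higher (Hoxa2, Hoxa3 and Hoxd3) and 6 lower, with the Hoxb9 call lost (-0.66, adjusted p = 0.0572). Hoxa4 and Hoxd4, whose cytosines all lie in other windows too, could not be tested there, and Hoxc4 was not among the tested windows. The medians over the members left were 0.473 for anterior HoxA and -0.0313 for HoxB. With at least 10 cytosines Hoxa2 (6 cytosines) and Hoxb8 (9 cytosines) dropped out. The medians over the remaining members were 0.247 for anterior HoxA and -0.121 for HoxB. With 11 libraries, without control day 12, the median of anterior HoxA was 0.258, and the estimates changed sign for Hoxb8 (-0.148), Hoxc12 (0.539) and Hoxd11 (-0.364). This setting used all cytosines listed in those 11 libraries. By limma it lost the calls of Hoxa4 (adjusted p = 0.0680) and Hoxc8 (adjusted p = 0.0651) and called Hoxc10 lower (adjusted p = 0.0434). With days 5 to 20 in both lines 5 members were called lower, and Hoxc12 changed sign to 0.000891. Members called lower numbered 9 with an offset of 0.05, on beta values and with the trended and robust prior, and 10 with at least 10 cytosines, all with Hoxd13 added and the last with Hoxc10 as well. They numbered 9 with experimental day 0 among the experimental libraries, with Hoxc10 added, and there Hoxd11 changed sign to -0.0623. Leaving out 1 library moved the estimate between -0.157 and 0.323 for Hoxb1, -0.366 and 0.472 for Hoxb8, -0.367 and 0.09997 for Hoxc12, -0.298 and 0.0601 for Hoxd1, and -0.100 and 0.244 for Hoxd11, none of which was called. Apart from members that a setting left without a value, the cause of these changes was not tested.

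With the day as a replicate block over days 5 to 20, where same-day libraries did not deviate together, 2 members were called higher (Hoxa3 and Hoxd4) and 1 lower (Hoxb9), with Hoxc12 at 0.000891. The same block called 0 promoters lower, 0 cytosines in either direction and 0 tiles in either direction. At an unadjusted p under 0.05 limma with the block had 7 promoters lower, 123 cytosines higher and 117 lower, and 37 tiles higher and 36 lower.

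Promoters called higher numbered 1 with an offset of 0.05, on beta values, without cytosines of constant value, with experimental day 0 added and with the trended and robust prior. Promoters called lower numbered 2 with an offset of 0.05, with at least 10 cytosines, with strands averaged and with experimental day 0 added. Cytosines called higher and lower numbered 10 and 1 with an offset of 0.001, 36 and 23 with an offset of 0.05, and 38 and 24 on beta values. No alternative called a member for a change after induction, and the fits without a library of day 0 could not be made for it, because that state then has no library in 1 line.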
